A study of Homo sapiens with 36 samples.

Results

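The Mir-130 and Mir-148 families are miRNA families whose seeds overlap. Of the 135 mature miRNAs with a value in this study of AGO2 variants, 7 belong to these families by name. The 4 that carry no asterisk are described here: Hsa-Mir-130-P2b_3p, Hsa-Mir-130-P4a_3p, Hsa-Mir-130-P4a_5p and Hsa-Mir-148-P1_3p. MirGeneDB marks passenger strands with an asterisk, which 110 of the 135 names lack. Both arms of the P4a hairpin are listed without an asterisk, so 4 members stand for 3 hairpins. The other 3 names of the families, Hsa-Mir-130-P3b_5p*, Hsa-Mir-148-P1_5p* and Hsa-Mir-148-P4_5p*, are passenger strands and are used for comparison. Members are defined by name, with no threshold on a measured value, but the families were picked with earlier results of these data known.

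AGO2 is an Argonaute protein that holds a single-stranded miRNA and uses it to find messenger RNAs for silencing. The miRNA is excised as a duplex, of which one strand, the guide, is kept and the other, the passenger, is mostly discarded. Pairing to the target rests mainly on the seed near the 5′ end of the guide. miRNAs of the Mir-130 family are known for repressing genes of TGF-beta signalling and lipid metabolism, and miR-148a is known for repressing DNMT1 and the LDL receptor.

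The seeds of both families (bases 2 to 8) are shown to make their overlap visible. The RefSeq set used here lists 6 human mature miRNAs with the Mir-130 seed and 3 with the Mir-148 seed among 2545. For the MIR130A gene this set holds only hsa-miR-130a-5p, so hsa-miR-130a-3p could not be counted or shown. No file used here pairs the MirGeneDB names with these RefSeq names, so the sequences stand for the families and not for single members. Capitals mark the seed.
hsa-miR-130b-3p: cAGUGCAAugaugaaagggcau
hsa-miR-301a-3p: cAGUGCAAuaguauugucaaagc
hsa-miR-301b-3p: cAGUGCAAugauauugucaaagc
hsa-miR-454-3p: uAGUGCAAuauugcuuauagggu
hsa-miR-148a-3p: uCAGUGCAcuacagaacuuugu
hsa-miR-148b-3p: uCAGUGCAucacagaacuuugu
hsa-miR-152-3p: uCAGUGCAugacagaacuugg
The letters AGUGCA, a run of 6 bases, are common to both seeds. They start at base 2 in the Mir-130 miRNAs and at base 3 in the Mir-148 miRNAs, so the seeds share a core but are shifted by a single base. The opposite arms of such hairpins carry other seeds, which matters for Hsa-Mir-130-P4a_5p. Examples are given with the seed in capitals.
hsa-miR-454-5p: aCCCUAUCaauauugucucugc
hsa-miR-130b-5p: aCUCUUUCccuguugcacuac
The run AGUGCA was found in neither of them. In GRCh38.p14 the mature sequence of miR-454-3p lies at chr17:59137787-59137809 and that of miR-301a-3p at chr17:59151149-59151171, both on the minus strand and both in an intron of SKA2. The mature sequence of miR-148a-3p lies at chr7:25949922-25949943 on the minus strand, outside any other annotated gene, and that of miR-148b-3p at chr12:54337278-54337299 on the plus strand in an intron of COPZ1.

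HEK293T, a human embryonic kidney line with the SV40 large T antigen, was transfected with Flag/HA-tagged AGO2 as WT, F182del, N359H, G604R or D619N, or with the Flag/HA-empty vector. All cells also received a plasmid for EGFP and kept their own untagged Argonaute proteins. Small RNA was sequenced from the cleared lysate (input) and from the anti-HA immunoprecipitate (IP), with 3 replicates of each of the 12 groups, or 36 libraries. Nothing states whether replicates were separate cultures, so p-values measure the spread between these libraries, which may be technical, and fewer cells and less RNA per cell cannot be told apart in the lysate. Values are RPM, reads scaled to the total of all reads in the library, and the reads behind each value were inferred from the step that 1 read makes.

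Libraries differed widely in depth. IP libraries of AGO2 held 16636 to 754009 reads and 1150 to 30793 miRNA reads, and the 3 IP libraries of the empty vector held 174 to 202 miRNA reads. Replicate 1 of the inputs of G604R, D619N and N359H held 9395, 17118 and 148205 reads, fewer than any other input. Of the 144 member values, 30 were 0 and 87 lay under 10 reads, most of them of the Mir-130 members. None of the 144 was 1 read, while 15 were 3 reads. Single reads thus seem to be missing from the values, and a 0 can stand for 0 reads or for 1 read. Where no read is stated for a library, its value was 0 in this sense. Shares that rest on a 0 carry the same limit. Intervals and limits of 3 reads given here cover counting error only.

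Hsa-Mir-148-P1_3p was the most abundant member in every group. In IP of WT-AGO2 it reached 821 ± 530 RPM (SD, n = 3) and ranked 13 of 135, from 362, 95 and 68 reads. Hsa-Mir-130-P4a_3p followed with 155 ± 89.0 RPM and Hsa-Mir-130-P4a_5p with 147.7 ± 101 RPM, and these arms did not differ beyond their spread. Hsa-Mir-130-P2b_3p was lowest with 37.1 ± 14.9 RPM, from 6, 4 and 14 reads. As a share of all miRNA reads, Mir-130 members together made up 0.165% to 0.754% of the 15 IP libraries of AGO2 (median 0.486%) and 0% to 0.758% of their inputs (median 0.361%).

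**Figure D1:**
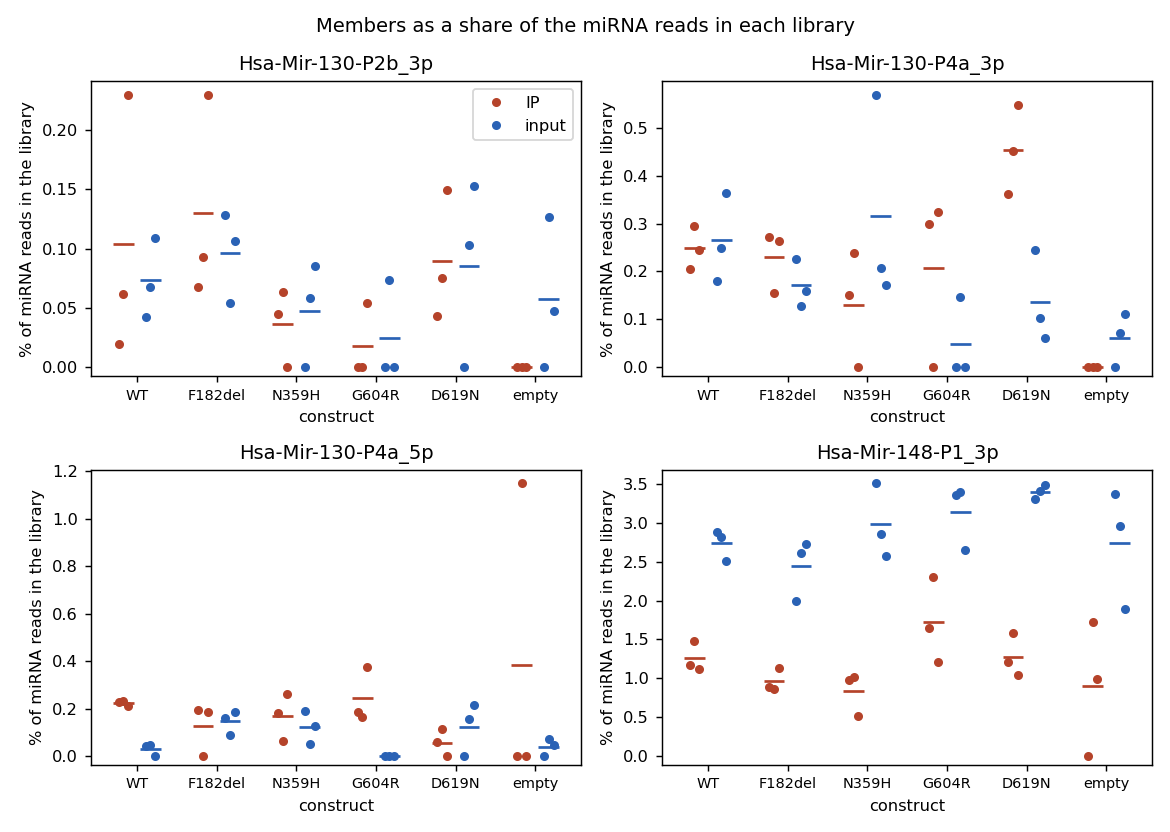
Each point is a library and each bar the mean of 3 libraries, with the member's reads in percent of the miRNA reads of that library on the y axis and the construct on the x axis. Hsa-Mir-148-P1_3p lies between 0.522% and 2.31% in the 15 IP libraries of AGO2 (red) and between 1.995% and 3.51% in their inputs (blue), while the Mir-130 members stay under 0.6% there.

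The IP of the empty vector gives the background of the precipitation. Hsa-Mir-148-P1_3p had 0, 3 and 2 reads in its 3 libraries, or 44.6 ± 38.9 RPM, and was 18.4-fold lower than in WT-AGO2, on 5 reads in all. Hsa-Mir-130-P4a_5p had 0, 2 and 0 reads, and the other members had none. All 4 members were lower than in every WT-AGO2 library, as WT-AGO2 lay above the empty vector without overlap for 70.4% of the 135 miRNAs. The exact permutation test, two-sided, gave p = 0.1 for each, which is the smallest p that 3 against 3 libraries allow. In these libraries 3 reads correspond to 112 RPM on average. By means, Hsa-Mir-130-P4a_3p was thus at least 1.38-fold lower, but its lowest WT-AGO2 library, at 54.8 RPM, lay under this limit. For Hsa-Mir-130-P2b_3p no difference was detectable at this depth. The 44.6 RPM of Hsa-Mir-148-P1_3p in the empty vector also lay under the limit, so its fold is uncertain.

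The comparison of WT-AGO2 IP with its input shows which miRNAs are over- or under-represented in the precipitate relative to the other miRNAs. A miRNA was called where limma gave both an adjusted p under 0.05 and a log2 fold change beyond 1 in either direction. Of the 4 members, 1 was called, against a background of 11.9% of 126 miRNAs. Hsa-Mir-130-P4a_5p had 70, 15 and 13 reads in IP and 4, 2 and 0 in the input. On the scaled RPM that the fit uses, these were 34.3, 31.4 and 28.2 in IP and 4.98, 5.72 and 0 in the input, without overlap. It rose by a log2 fold change of 3.23 (SE 0.82, adjusted p = 0.0267, limma). The call rests on 6 input reads. It was lost in 7 of 15 alternatives, among them each that left out an IP library, with adjusted p of 0.0587 to 0.1002 for these (limma), and with the shared lysate as a block it remained (adjusted p = 0.00486, limma).

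Hsa-Mir-130-P4a_3p had 63, 19 and 15 reads in IP and 17, 11 and 10 in the input, with scaled RPM of 30.8, 39.8 and 32.6 against 21.2, 31.5 and 41.1. The groups overlapped, with a log2 fold change of 0.18 (SE 0.37, adjusted p = 0.7203, limma). Hsa-Mir-130-P2b_3p also overlapped, at a log2 fold change of 0.20.

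Hsa-Mir-148-P1_3p was lower in IP than in the input of WT-AGO2. Its scaled RPM was 177, 199 and 147.7 in IP and 337, 355 and 283 in the input, so the groups lay apart, as did those of 43.7% of miRNAs. The log2 fold change was -0.90 (SE 0.21, adjusted p = 0.0209, limma), which is under the fold needed for a call. Scaled to the sum of miRNA reads it was -1.13 and called (adjusted p = 0.00960, limma), while Hsa-Mir-130-P4a_5p was not called there. This is a change relative to the other miRNAs. On RPM as deposited, where the median log2 fold change of all miRNAs was 3.74, that of Hsa-Mir-148-P1_3p was 2.94.

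The same direction was seen in every lysate with tagged AGO2. As a share of miRNA reads, Hsa-Mir-148-P1_3p made up 1.18%, 1.48% and 1.11% of the IP and 2.89%, 2.81% and 2.51% of the input for WT-AGO2. For F182del it made up 0.893%, 0.868% and 1.13% of the IP and 1.995%, 2.61% and 2.72% of the input. For N359H the values were 0.983%, 1.02% and 0.522% in IP and 3.51%, 2.86% and 2.57% in the input. In all of these pairs the IP lay below its own input. For G604R they were 1.64%, 2.31% and 1.21% in IP and 3.36%, 3.39% and 2.65% in the input. For D619N they were 1.20%, 1.58% and 1.04% in IP and 3.30%, 3.40% and 3.48% in the input. The share was thus lower in IP than in the input in 15 of 15 pairs, which was true of 9 of the 135 miRNAs (6.67%), and the ratio of IP to input lay between 0.203 and 0.680 with a median of 0.416.

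**Figure D2:**
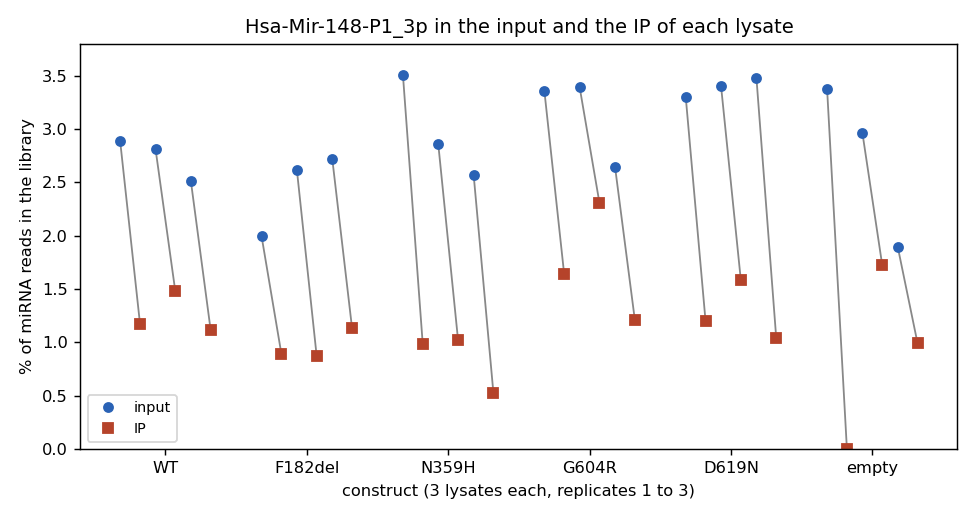
The y axis gives Hsa-Mir-148-P1_3p in percent of the miRNA reads of a library, and each line joins the input (blue circle) to the IP (red square) of one lysate, by construct. All 15 lines of the AGO2 constructs slope downwards, and the empty vector IP rests on 0, 3 and 2 reads.

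A fit over the 5 AGO2 groups, with the lysate as a block, was added after these values had been seen. It gave Hsa-Mir-148-P1_3p a log2 fold change of -0.99 (SE 0.12, adjusted p = 4.16e-06, limma), against a median of 0.29 over all miRNAs. This is just under the fold of the call rule, so 0 of 4 members were called by it, while 34.1% of the 135 miRNAs were. Hsa-Mir-148-P1_3p and Hsa-Mir-130-P4a_5p had an unadjusted p below 0.05. With RPM as deposited left aside, the log2 fold change of Hsa-Mir-148-P1_3p lay between -1.34 and -0.91 in 28 alternatives, of which 9 gave a call. Without the lysates of the 3 shallow inputs, input and IP alike, it was -1.11. Hsa-Mir-130-P4a_5p had a log2 fold change of 1.56 (SE 0.73, adjusted p = 0.0902, limma) and was higher in IP in 10 of 15 pairs. Hsa-Mir-130-P4a_3p was higher in 11 of 15, and 25.2% of miRNAs were higher in at least 10.

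Hsa-Mir-148-P1_5p*, the passenger strand of the Hsa-Mir-148-P1 hairpin, was called higher in IP in the same fit, as were 20.7% of all miRNAs, with a log2 fold change of 2.30 (SE 0.58, adjusted p = 0.00276, limma). In WT-AGO2 IP against its input, the median log2 fold change of the 20 passenger strands tested was 1.97. That of the 106 names without an asterisk was 0.17. A strand could pass the filter on low values through the IP libraries alone, which favours a rise. In the inputs of WT-AGO2 and the empty vector, 9 passenger strands passed this filter. The medians are thus given as a description. Hsa-Mir-148-P1_5p* had 1.32 in WT-AGO2 IP against its input. It was higher in IP in 11 of 15 pairs and had a value of 0 in 4 of the 15 inputs. Its reads made up 30.9%, 27.5% and 19.0% of the hairpin's reads in IP of WT-AGO2 and 9.97%, 2.36% and 11.5% in the input. These shares did not overlap. Hsa-Mir-130-P3b_5p* had 66, 21 and 22 reads in IP of WT-AGO2 and 0 in each input, so its share of miRNA reads was at least 4.31-fold higher in IP, against 3 reads per library. Over the AGO2 groups it had a value of 0 in 13 of 15 inputs, and Hsa-Mir-148-P4_5p* had a value of 0 in 11 of 15. Both passed the filter on low values through the IP libraries, so their values in IP against input are given as a description.

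Each variant was then compared with WT-AGO2 in IP, which addresses whether a variant holds the members differently. None of the 4 members was called for any variant with limma. The background was 14.6% of 123 miRNAs for D619N, 6.02% of 133 for F182del, 4.88% of 123 for G604R and 0% of 123 for N359H. At an unadjusted p below 0.05 there was 1 member for D619N and 0 for the others.

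In D619N the values of the P4a arms lay on opposite sides of WT-AGO2, though neither passed the test. Hsa-Mir-130-P4a_3p had 25, 12 and 11 reads, and scaled RPM of 278, 305 and 331 against 136, 197 and 159 in WT-AGO2. All 3 D619N libraries were higher, and 37.4% of miRNAs had libraries that lay apart. The log2 fold change was 0.90 (SE 0.25, adjusted p = 0.0667, limma), which missed the threshold, while the median of all miRNAs was -1.18. That median moved with the pseudocount, to -0.61 at 10 RPM and -1.50 at 0.1 RPM. Hsa-Mir-130-P4a_5p had 4, 3 and 0 reads, and scaled RPM of 44.5, 76.3 and 0 against 150.6, 156 and 138. All 3 D619N libraries were lower, with a log2 fold change of -3.29 (SE 1.67, adjusted p = 0.196, limma). In D619N libraries 3 reads correspond to 0.102% of miRNA reads on average, against 0.0352% in WT-AGO2, so low values of D619N are less certain.

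The share of the 3p arm among the P4a reads shows the same within each library and needs no scaling. In IP of WT-AGO2 it was 47.4%, 55.9% and 53.6%, with 95% Wilson intervals of 39.1% to 55.8%, 39.5% to 71.1% and 35.8% to 70.5%. In IP of D619N it was 86.2%, 80.0% and 100%, with intervals of 69.4% to 94.5%, 54.8% to 93.0% and 74.1% to 100%. The D619N libraries thus lay above all WT-AGO2 libraries. Summed over libraries, D619N had 48 reads of the 3p and 7 of the 5p arm, and WT-AGO2 had 97 and 98. In the input of WT-AGO2 the share was 81.0%, 84.6% and 100%, on 44 reads in all, 6 of them of the 5p arm. WT-AGO2 IP thus lay below its own input. Inputs of the other constructs varied. They lay at 58.3%, 58.3% and 46.2% for F182del and at 75.0%, 80.6% and 57.1% for N359H. The inputs of the empty vector that held reads had 50.0% and 70.0%, and that of G604R had 100% on 4 reads. The inputs of D619N ranged from 22.2% to 100% on 16 reads in all. These shares were looked at after the values were known. For D619N IP against WT-AGO2 IP the exact permutation test gave p = 0.1 (adjusted p = 0.2). For WT-AGO2 IP against its input the exact permutation test gave p = 0.1. This is the smallest p that 3 against 3 libraries allow, so neither difference in share passed the threshold of 0.05.

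**Figure D3:**
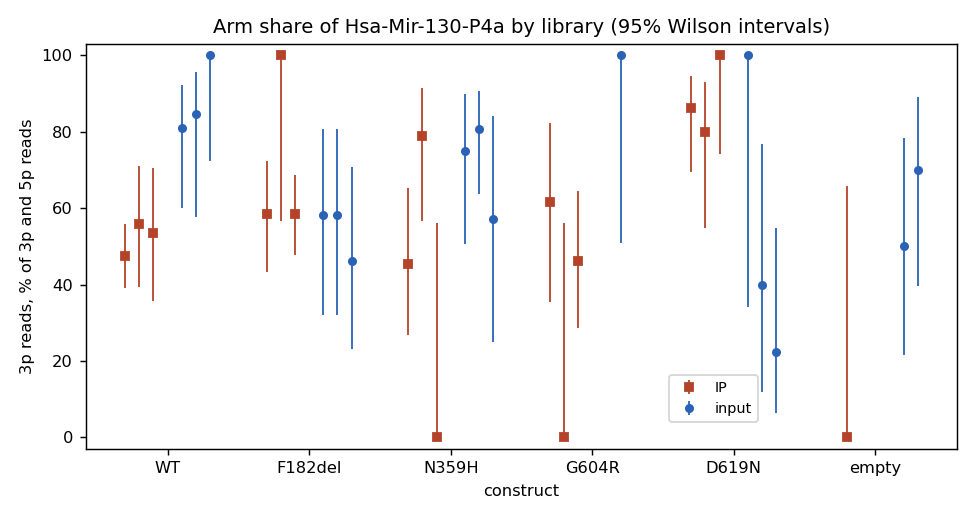
The y axis gives 3p reads in percent of the 3p and 5p reads of Hsa-Mir-130-P4a, with a point per library, 95% Wilson intervals as bars, and IP (red squares) beside input (blue circles) for each construct. IP of D619N lies at 80.0% to 100% and IP of WT-AGO2 at 47.4% to 55.9%, and libraries with no read of either arm are not drawn.

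For the other variants the arm share in IP was 58.5%, 100% and 58.5% for F182del, all above WT-AGO2, where the value of 100% rests on 5 reads. The intervals of the 58.5% values, 43.4% to 72.2% and 47.7% to 68.6%, overlapped those of WT-AGO2. The exact permutation test gave p = 0.1 (adjusted p = 0.2), so this difference did not pass the threshold either. Unlike WT-AGO2, F182del IP did not lie below its own input. The arm share was 45.5%, 78.9% and 0% for N359H and 61.5%, 0% and 46.2% for G604R, overlapping WT-AGO2, and each value of 0% rests on 3 reads. The passenger strand Hsa-Mir-130-P3b_5p* had no read in the 3 D619N IP libraries and was at least 2.95-fold lower there in its share of miRNA reads. In this comparison it passed the filter on low values only through the WT-AGO2 libraries, so its call is given as a description. Of the 3 passenger strands it was the only one called in D619N, where 14.6% of 123 miRNAs were. The call was lost with RPM as deposited (adjusted p = 0.0565, limma). Over the 20 passenger strands tested in D619N, the median log2 fold change was -1.86. The names without an asterisk also had a negative median there, at -1.07. A strand could pass the filter on low values through the WT-AGO2 libraries alone, which favours a fall. These medians are thus given as a description, and whether they differ was not tested. For Hsa-Mir-148-P1 the reads in IP of D619N were 83, 42 and 21 of the 3p arm and 34, 2 and 2 of the 5p* arm.

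Hsa-Mir-148-P1_3p passed the test for no variant in IP. Its log2 fold change against WT-AGO2 was 0.06 (SE 0.25) for D619N, 0.26 (SE 0.25) for G604R, -0.32 (SE 0.22) for F182del and -0.55 (SE 0.31) for N359H. In F182del all 3 libraries were lower, with scaled RPM of 415, 358.5 and 411 against 499, 535 and 451, as libraries lay apart for 22.6% of miRNAs. The median log2 fold change of all miRNAs was -1.18 for D619N, -0.34 for G604R, 0.01 for F182del and -0.56 for N359H. The member with the smallest p in F182del was Hsa-Mir-130-P4a_5p, with a log2 fold change of -2.29 (SE 1.33, adjusted p = 0.391, limma) from 17, 0 and 34 reads, and of -0.14 without the library at 0 (replicate 2). In N359H it was Hsa-Mir-148-P1_3p (adjusted p = 0.740, limma), whose log2 fold change of -0.55 lay close to the median of all miRNAs. It became -0.16 without replicate 3 of N359H, a library of 1150 miRNA reads with 6 of this member. Without that replicate the median of all miRNAs was -0.008. In G604R the member with the smallest p was Hsa-Mir-130-P2b_3p, with a log2 fold change of -3.22 (SE 1.55, adjusted p = 0.397, limma) from 0, 0 and 2 reads. The values of both Mir-130 members rest on libraries at 0, and none of these differences passed the test.

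The inputs show whether the members differed in the lysate before precipitation. In the 4 comparisons of variants with WT-AGO2 and that of WT-AGO2 with the empty vector, 0 of 4 members were called each time, and limma called 0% of the 105 to 114 miRNAs tested. An unadjusted p below 0.05 was reached by 1 member each for F182del, for G604R and for the empty vector, and by none for N359H and D619N. For Hsa-Mir-148-P1_3p the inputs gave log2 fold changes of -0.25 (SE 0.22) for F182del, -0.02 (SE 0.23) for N359H, 0.02 (SE 0.23) for G604R and 0.15 (SE 0.23) for D619N.

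Among Mir-130 members a few inputs lay apart. Hsa-Mir-130-P4a_5p had 5, 5 and 7 reads in F182del against 4, 2 and 0 in WT-AGO2, all higher, as 7.89% of miRNAs lay apart (log2 fold change 1.51, SE 0.53, adjusted p = 0.516, limma). In N359H it was also higher in all 3 inputs, as 7.55% of miRNAs lay apart (1.33, SE 0.76, adjusted p = 0.826, limma). Hsa-Mir-130-P4a_3p had 0, 4 and 0 reads in G604R against 17, 11 and 10 in WT-AGO2, all lower, as 8.49% of miRNAs lay apart (-2.71, SE 1.09, adjusted p = 0.341, limma). In D619N it had 2, 2 and 2 reads and overlapped WT-AGO2 (-1.15, SE 0.73, adjusted p = 0.864, limma). In the empty vector it had 0, 4 and 7 reads, and WT-AGO2 was higher in all 3, as 9.52% of miRNAs lay apart (1.85, SE 0.62, adjusted p = 0.820, limma). None of these differences passed the test, and the shallow inputs of replicate 1 are among the values at 0.

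The interaction of fraction and variant tests whether a difference in IP exceeds that in the input. None of the 4 members was called, against 0.741% of 135 miRNAs for F182del, 0% of 130 for N359H, 1.54% of 130 for G604R and 3.94% of 127 for D619N. At an unadjusted p below 0.05 there was 1 member each for F182del, N359H and D619N. For F182del it was Hsa-Mir-130-P4a_5p, with an interaction of -3.96 on the log2 scale (SE 1.44, adjusted p = 0.237, limma). With the lysate as a block this became a call (adjusted p = 0.0275, limma). Without the block, the interaction was -2.36 (adjusted p = 0.436, limma) when replicate 2 of the F182del IP, which has no read of this member, was left out. For D619N it was Hsa-Mir-130-P4a_3p, at 2.11 (SE 0.67, adjusted p = 0.152, limma), which became a call without the shallow input of replicate 1 (2.56, adjusted p = 0.0201, limma). For N359H Hsa-Mir-130-P4a_5p gave -2.74 (SE 1.30, adjusted p = 0.647, limma) and for G604R 1.65 (SE 1.17, adjusted p = 0.648, limma).

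**Figure D4:**
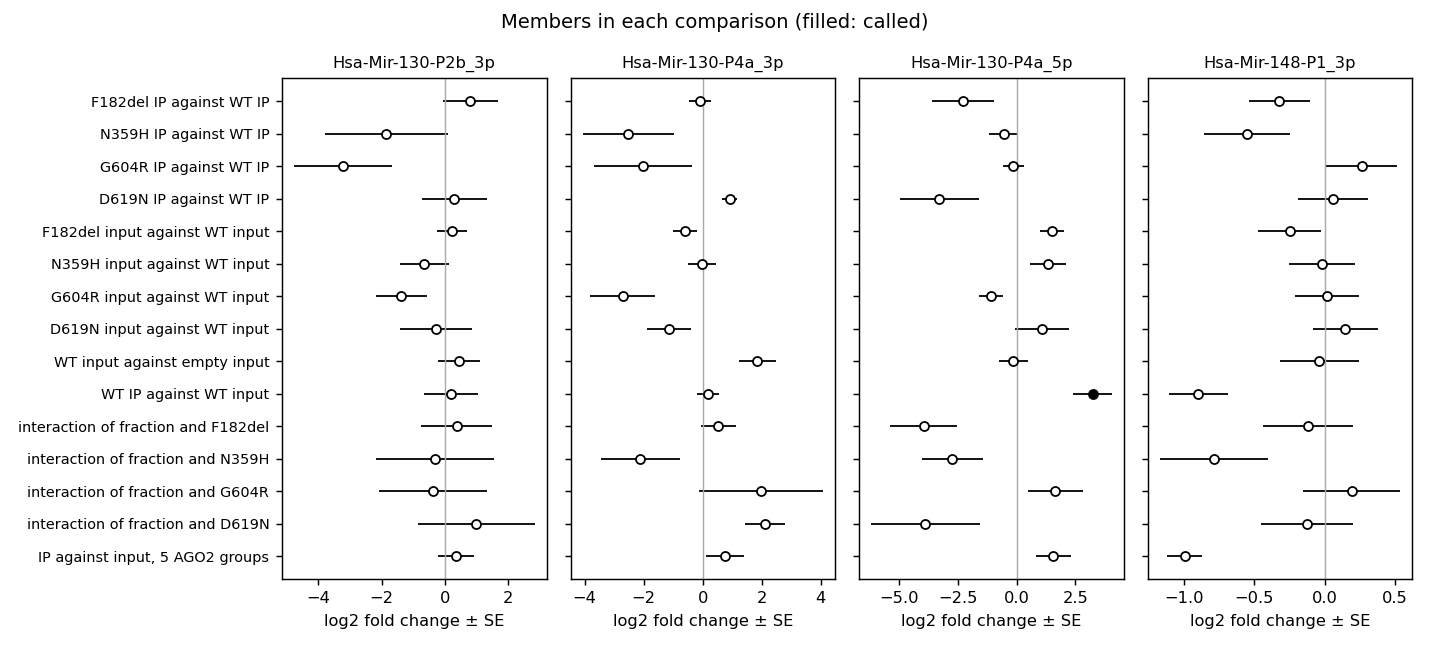
Each panel is a member, the x axis its log2 fold change or interaction with the standard error as a bar, and each line a comparison, with filled points for calls. The only filled point is Hsa-Mir-130-P4a_5p in WT IP against WT input, at 3.23, and the last line is the fit over 5 AGO2 groups that was added later. Scales differ between panels.

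Over the 15 IP libraries of AGO2, the likeness of the members' patterns differed from pair to pair. On log2 scaled RPM, Pearson's r was 0.72 between Hsa-Mir-130-P2b_3p and Hsa-Mir-130-P4a_3p, -0.21 between the arms of P4a, and 0.28 between Hsa-Mir-130-P4a_3p and Hsa-Mir-148-P1_3p. The patterns most like Hsa-Mir-130-P4a_3p were those of Hsa-Let-7-P2c3_5p (r = 0.90) and Hsa-Mir-561_5p (r = 0.80), where the median over the other miRNAs was 0.17. For Hsa-Mir-148-P1_3p they were Hsa-Mir-28-P1_3p (r = 0.72) and Hsa-Mir-30-P1b_5p (r = 0.68), with a median of 0.01. The points share libraries and depth, so these are descriptions. A value of 0 lies far below the others on this scale. Hsa-Mir-130-P2b_3p and Hsa-Mir-130-P4a_3p were both at 0 in replicate 3 of N359H and replicate 2 of G604R. Hsa-Mir-130-P4a_5p was at 0 in other libraries, replicate 2 of F182del and replicate 3 of D619N. How far such zeros set the values of r was not tested.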

How the data were processed

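Small RNA was sequenced from 36 libraries (TruSeq kit). sRNAbench with MirGeneDB was run by the authors, and the deposited RPM relate to all reads of a library. The submitters' processing notes name GRCh38. The terms minExpr1 and RCadj in the deposited table are not explained in the sources used here, so no count model was fitted. Values were whole multiples of 1 read within 0.01 reads.

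RPM were scaled by median of ratios over miRNAs above 0 in all libraries of a comparison. Rows that reached a scaled RPM of 1 in 2 or more libraries of any group were fitted on log2(RPM + 1) with limma 3.58.1 in R 4.3.3 (lmFit, eBayes with trend, Benjamini-Hochberg over all miRNAs). Adding 1 RPM shrinks fold changes between low values, but libraries at 0 in a shallow group can enlarge them. For Hsa-Mir-130-P2b_3p in G604R IP against WT-AGO2 IP, the log2 fold change lay between -6.33 and -1.38 over 15 alternatives. In 14 comparisons, plus 1 over 5 AGO2 groups added later, members were called with an adjusted p under 0.05 and a log2 fold change beyond 1 in either direction. All 4 members passed the filter in each. Full statistics are given for called members or else for the one with the smallest p, and further values, such as those of Hsa-Mir-148-P1_3p and of the P4a arms, were chosen after they were seen. Exact permutation tests used scipy 1.17.1. The fit was tested on simulated data. Sequences are from RefSeq (GRCh38.p14), host genes from GENCODE. The members and lists were chosen with earlier results of these data known.

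Input and IP of a number come from one lysate, which pairs them by origin. Between constructs, deviations of same-numbered libraries correlated above 0.1 in all 3 pairs for F182del in IP (0.113 to 0.342), for F182del and N359H in the input, and for WT-AGO2 and the empty vector in the input. Alternatives were other pseudocounts (0.1 and 10 RPM), filters, scalings, a fit without trend, a fit of 5 groups, the replicate block and each library left out.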

Additional observations from a re-analysis of the deposited data

How the results depend on the processing

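Of 262 alternative counts of called members in 15 comparisons, 237 stayed within 1.5 times the count given and 25 moved. In WT-AGO2 IP against input the count of 1 became 0 with a pseudocount of 0.1 RPM, without trend and in the fit of 5 groups, and 4 with RPM as deposited, where the median log2 fold change of all miRNAs is 3.74. Scaled to the miRNA sum it stayed 1 with another member, Hsa-Mir-148-P1_3p called lower in place of Hsa-Mir-130-P4a_5p. Without single libraries it was 0 to 2, being 0 without any 1 of the IP libraries and 2 without input replicate 3. In the fit over 5 AGO2 groups the count of 0 became 4 with RPM as deposited. It became 1 when scaled to the miRNA sum, without the lysates of the 3 shallow inputs, and without the construct WT, F182del, G604R or D619N. Without single lysates it was 0 to 1. Each change to 1 in that fit crosses a fold limit that Hsa-Mir-148-P1_3p misses narrowly, or is a call of Hsa-Mir-130-P4a_5p. For the interaction of F182del the replicate block, here the lysate, gave 1 call. For the interaction of D619N the count without single libraries was 0 to 1, with the 1 without D619N input replicate 1. For the input of G604R it was 0 to 1, with the 1 without WT-AGO2 input replicate 3. The pairing of same-numbered libraries changed no other call of a member. Directions reversed with RPM as deposited for Hsa-Mir-148-P1_3p in the fit over 5 groups (1.94), for Hsa-Mir-130-P4a_3p in D619N input (0.36) and for Hsa-Mir-130-P4a_5p in the interaction of G604R (-0.30). Of 257 alternatives of the single fold changes given, 236 kept direction and side of the threshold. A mean of at least 10 RPM removed some members from the input fits, which then gave no value. Mir-130 members rest on few reads, so that differences among inputs were often not detectable at this depth.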
